A study of Homo sapiens with 34 samples.

Results

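The transcriptomes of 11 established human mantle cell lymphoma (MCL) lines were compared with those of 3 established Burkitt lymphoma (BL) lines. The 14 lines were taken, by the pathology their labels give, from a set of 34 B-cell lymphoma lines with 1 RNA sequencing library each. The MCL lines were GRANTA519, HBL-2, Jeko-1, JVM2, MAVER-1, Mino, REC-1, SP-49, SP-53, UPN1 and Z-138, and the BL lines were Daudi, Raji and Ramos. The labels name no treatment, genotype or growth conditions for any of them, so a line stood for its pathology only by name. Each line is an established culture that has grown outside its patient, and, with 1 library a line, p-values reflect only how the lines of a pathology scatter. The other 20 lines were diffuse large B-cell lymphomas (DLBCL) of the germinal centre B-cell (GCB) type or the activated B-cell (ABC) type. They were used below only in alternative fits with more lines and to place called and named genes.

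Both lymphomas arise from mature B cells but from different stages of their life. MCL resembles B cells of the mantle zone, most of which have not passed through a germinal centre, and it carries a translocation that places CCND1, the gene of cyclin D1, under the control of the immunoglobulin heavy chain locus. BL resembles the rapidly dividing cells of the germinal centre dark zone, and it carries a translocation that does the same to MYC. The germinal centre state depends on the repressor BCL6 and on receptors such as S1PR2 that keep the cells inside the follicle.

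Values are log2 variance-stabilised read counts as deposited, in which a gene without a read sits at 4.55 and differences close to that level are compressed. A difference is the mean of the MCL lines minus the mean of the BL lines on this scale, given with its standard error from limma, a linear model that shares information on the spread across genes. Adjusted p is the Benjamini-Hochberg value over the 16902 genes tested, and a gene is called higher or lower in MCL where it lies under 0.05. Whole reads could be recovered from the values. MCL libraries held 60.1 to 109 M reads (M for 1e6), and BL libraries held 22.6 M in Daudi, 92.4 M in Raji and 59.1 M in Ramos. In MCL 21.1 to 27.9% of the genes of the table had no read, and in BL 30.6 to 35.3%. In bulk RNA, fewer cells expressing a gene and less RNA per cell cannot be told apart.

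The labelled lineage was checked first. All 7 B-lineage markers passed the filter on low values, and none was called (median difference -0.17). The surface marker MS4A1, the target of rituximab, lay at 14.80 in Daudi, 14.43 in Raji and 13.03 in Ramos, and from 13.35 to 16.18 with a median of 14.71 in MCL. Of 10 T-cell markers 8 passed that filter, of 7 NK-cell markers 3, of 10 myeloid markers 3 and of 6 erythroid markers 1, with no calls. Their summed levels reached at most 212 RPM (reads per 1e6 reads of the library) for the T-cell list in MCL, against 1223 to 6158 RPM for the B-lineage list. CD3D, CD2, CD14 and HBB were below the filter, but the other T-cell markers, CD3E and CD3G among them, passed it. Of 8 stromal and endothelial markers 3 passed, none was called, and their sum ran from 6.11 to 141 RPM in MCL and from 1.63 to 7.0 RPM in BL.

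On the first principal component, with 21.5% of the variance of the 14 lines, the BL lines scored from 95.5 to 105 and JVM2 33.3, while the other 10 MCL lines lay at -8.7 (REC-1) or lower. The second component, with 18.8%, set JVM2 apart at -157. The 4 lines whose labels lack the mark of re-analysed data (Daudi, MAVER-1, UPN1 and HBL-2) had the 4 highest scores on it, from 47.9 to 61.4. SP-49 and SP-53 were the closest pair of lines, with 8.94% of tested genes apart by more than 1 log2 unit against 20.2% or more in the other pairs. Both were kept as separate lines, so standard errors and p-values treat them as independent, and whether they are related was not tested.

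**Figure D1:**
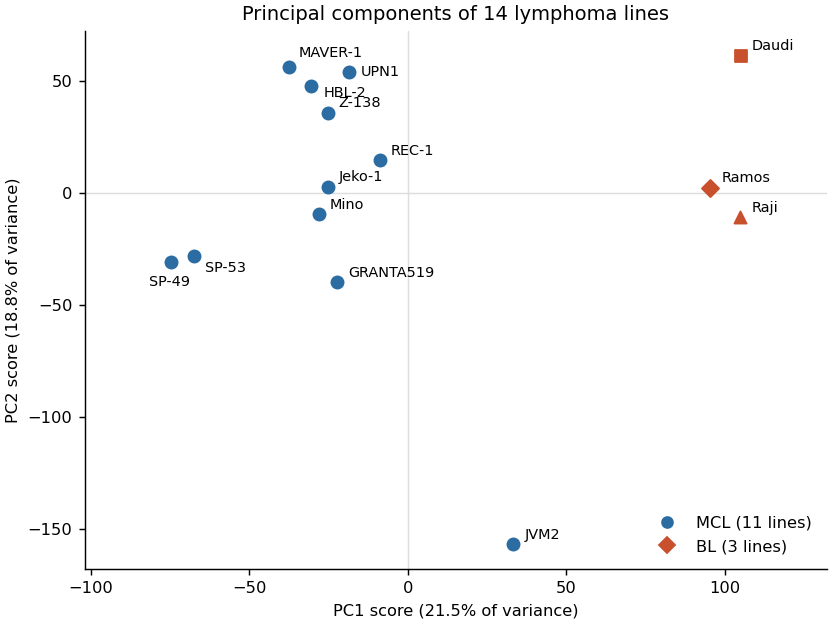
Scores of the 14 lines on the first and second principal components of the tested genes, with axes in score units and the share of variance in brackets. Circles are MCL lines, and the square, triangle and diamond are Daudi, Raji and Ramos. The BL lines lie to the right and JVM2 lies alone at the bottom.

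Of the 16902 genes tested, 527 (3.12%) were called, with 375 (2.22%) higher and 152 (0.899%) lower in MCL. The greatest positive differences were those of CCND1, the membrane protein gene ITM2C and MARCKS, which encodes an actin-binding substrate of protein kinase C. The greatest negative ones were those of MME, which encodes the surface peptidase CD10, the growth factor gene BMP7 and RGS13, a brake on chemokine receptor signalling in germinal centre B cells. In 119 of the 375 higher genes every BL line had at most 10 reads, so those genes were nearly silent in BL. In 14 of the 152 lower genes every MCL line had at most 10 reads. The counts of 119 and 14 cannot be compared, because the condition had to hold in more lines for MCL than for BL. These reads are also not scaled for library depth, and the share of all tested genes that meets either condition is not given. The ranges of the groups did not touch in 268 of the higher and 116 of the lower genes. Over all genes tested, all MCL lines lay above all BL lines in 538 (3.18%) and below in 198 (1.17%).

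The number of calls depended on single lines. Without Daudi, the shallowest of the 14 libraries, 222 genes were called and 84 of them were lower. Without Raji 195 were higher and 126 lower, and without JVM2 597 and 242. The share of higher genes among the calls was 71.2%, and it was 55.3% with each library centred on its median, 49.9% after quantile normalization and 34.6% (74 higher, 140 lower) with voom, a weighted limma fit of the recovered reads. Median-centring moved the median difference of all genes from 0.09 to -0.14. Every call that any of these fits shared with the 527 had the same direction. The fits share lines and values, so this was nearly fixed in advance. Among the 8 MCL and 2 BL lines marked as re-analysed 375 of 375 higher and 152 of 152 lower genes had the same direction, and among the 3 MCL and 1 BL lines without the mark 374 and 151 did. All of these lines took part in choosing the genes, so that agreement was largely fixed in advance and is no replication. A fit of the 10 marked lines alone called 131 genes, 118 of them among the 527.

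**Figure D2:**
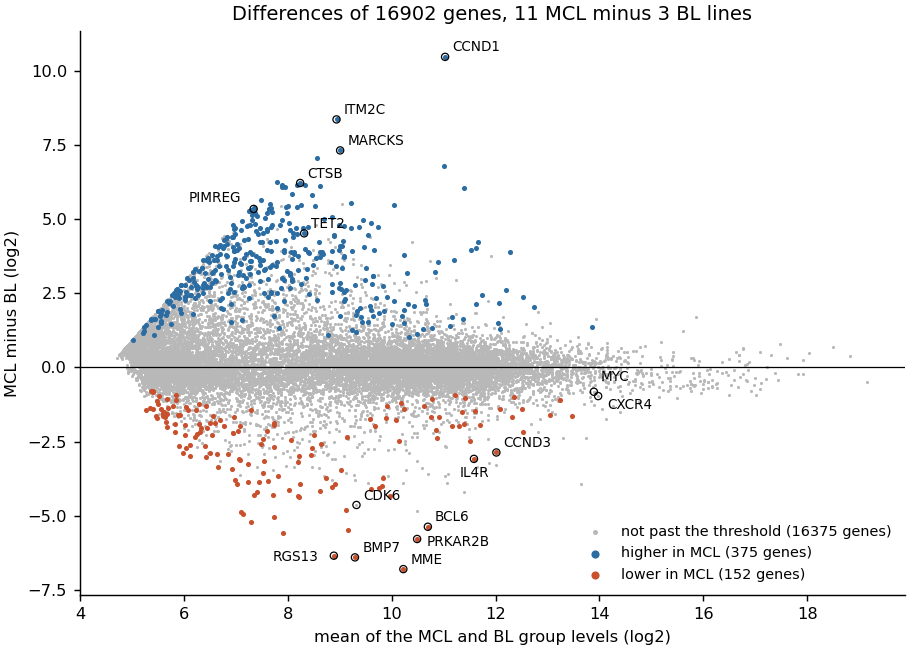
Difference between MCL and BL (vertical axis, log2) against the mean of the MCL and BL group levels (horizontal axis, log2) for the 16902 genes tested, each point a gene. Blue points are the 375 genes higher and red points the 152 genes lower in MCL. CCND1 lies alone at the top, and MYC and CXCR4 lie close to 0 among the grey points.

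D-type cyclins switch on the kinases CDK4 and CDK6, which release cells from the first phase of the cell cycle, and the members of the family differed in opposite directions. CCND1 (ENSG00000110092, chromosome 11, 69641156 to 69654474, GRCh38.p14) was higher in MCL and CCND3, the cyclin D of the dark zone, was lower. CCND1 lay at 4.55 in Daudi, 5.91 in Raji and 6.9 in Ramos, from 0, 47 and 111 reads. In MCL it ran from 12.59 to 17.35 with a median of 16.83, the lowest being JVM2 with 6581 reads. The difference of 10.48 ± 0.82 (adjusted p = 3.7e-06) was the greatest in the table, the groups did not overlap, and the call held in every alternative fit tried.

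CCND3 (chromosome 6, 41934933 to 42050035) lay at 13.45 in Daudi, 13.41 in Raji and 13.49 in Ramos, a spread of less than 0.1 between BL lines. In MCL it ran from 9.88 to 11.33 with a median of 10.75, so that the highest MCL line, HBL-2, was about 2 log2 units below every BL line. The difference was -2.87 ± 0.3 (adjusted p = 5.0e-05), which did not pass when all 34 lines shared 1 estimate of the spread (adjusted p = 0.062). CCND2 was near silent in BL, at 4.89 in Daudi, 4.84 in Raji and 5.36 in Ramos. Its MCL values ran from 4.55 in REC-1 to 13.24 in JVM2, the MCL line with the lowest CCND1, and the difference of 2.37 ± 1.5 (adjusted p = 0.49) was not called. JVM2 thus had the highest CCND2 and the lowest CCND1 of the MCL lines.

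Of 22 regulators of this cell cycle step, 3 were higher and 1 lower in MCL, against 2.22% and 0.899% of all genes. The list median was -0.2, against 0.09 for all genes. Beside CCND1, the higher ones were CDKN1C (4.08 ± 0.9 (adjusted p = 0.02)) and CDKN1B (2.39 ± 0.47 (adjusted p = 0.01)), which encode inhibitors of cyclin-dependent kinases. CDKN1C had 3, 1 and 1 reads in Daudi, Raji and Ramos and 47 to 15128 in MCL. CDKN1B lay at 7.33 in Daudi, 8.89 in Raji and 9.91 in Ramos, and from 10.22 to 12.22 with a median of 11.12 in MCL, so the lowest MCL line stood just above Ramos. Without Daudi neither passed (adjusted p = 0.092 for CDKN1C and 0.11 for CDKN1B). CDKN1B also did not pass in all 34 lines (0.16) or in the 25 lines of 1 library class described below (0.18). CDKN1C also did not pass without Raji (0.09) or without Ramos (0.078).

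CDK6, the kinase partner of the D cyclins, was not called although its mean was far lower in MCL. BL levels were 12.03 in Daudi, 11.51 in Raji and 11.38 in Ramos. The MCL lines split widely, with GRANTA519 at 11.08 and JVM2 at 11.12, HBL-2 at 9.02, and 4 lines with at most 10 reads. JVM2, the highest MCL line, lay just below Ramos, so the groups did not overlap. The difference was -4.64 ± 1.32 (adjusted p = 0.074). It passed in the fit of all 34 lines (0.025), in the 25 lines of 1 library class described below (0.027), with voom (0.033), without GRANTA519 (0.031) and without JVM2 (0.021).

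Of 20 germinal centre genes tested, 7 were called lower in MCL (0.899% of all genes were) and none higher. At an unadjusted p under 0.05, 15 of the 20 were lower, against 2672 of all 16902 genes in either direction. The median difference of the list was -2.73, and in 10 of the 20 every MCL line lay below every BL line, as in 1.17% of all genes. Among the 7 were MME, RGS13, BCL6, MYBL1, S1PR2 and ELL3. In the 10 lines marked as re-analysed alone, BCL6 (0.1), MYBL1 (0.087) and S1PR2 (0.069) did not pass.

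MME (ENSG00000196549, chromosome 3, 155024202 to 155183729) encodes CD10, the surface peptidase by which germinal centre lymphomas are recognised in diagnosis. It lay at 14 in Daudi, 12.62 in Raji and 14.26 in Ramos. In MCL it ran from 4.81 to 10.49 with a median of 5.84, with 5 lines at no more than 10 reads and UPN1 the highest. The difference was -6.81 ± 1.14 (adjusted p = 0.0032) and the groups did not overlap.

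BCL6 (ENSG00000113916, chromosome 3, 187721377 to 187745468), the repressor that holds B cells in the germinal centre state, was nearly equal in the BL lines, at 13.29 in Daudi, 13.27 in Raji and 13.60 in Ramos. The MCL values ran from 5.45 to 11.55 with a median of 7.49. SP-53 at 11.55 and SP-49 at 10.48 were the highest MCL lines and JVM2, with 10 reads, the lowest. The difference was -5.38 ± 0.96 (adjusted p = 0.005), with no overlap.

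RGS13 lay at 10.06 in Daudi, 12.42 in Raji and 13.71 in Ramos, against values from 4.55 to 8.62 with a median of 5.37 in MCL (-6.35 ± 0.88 (adjusted p = 6.9e-04)). HBL-2 at 8.62 and JVM2 at 8.23 were its only MCL lines above 6.

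MYBL1, a MYB-family transcription factor of dark zone cells, lay at 12.68 in Daudi, 11.68 in Raji and 12.07 in Ramos and from 6.55 to 10.24 with a median of 7.58 in MCL (-4.34 ± 0.69 (adjusted p = 0.0021)). ELL3, which encodes an elongation factor of RNA polymerase II, lay at 7.28 in Daudi, 7.97 in Raji and 8.92 in Ramos and from 5.15 to 6.71 with a median of 5.69 in MCL (-2.21 ± 0.39 (adjusted p = 0.0047)). In MYBL1 and ELL3 the groups did not overlap. Among the members that were not called, the ectoenzyme gene CD38 lay at 13.73 in Daudi, 13.07 in Raji and 14.17 in Ramos with an MCL maximum of 12.81, so the groups did not overlap, but the MCL spread down to 5.93 in SP-53 left -3.3 ± 1.08 (adjusted p = 0.13). SERPINA9 and GCSAM, used in classifiers of germinal centre lymphoma, varied within the groups. SERPINA9 ran from 5 reads in Ramos to 16200 in Raji, and the MCL line REC-1 had 4809. GCSAM was high in all BL lines but also at 13.53 in GRANTA519, with REC-1 lowest at 5.37.

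**Figure D3:**
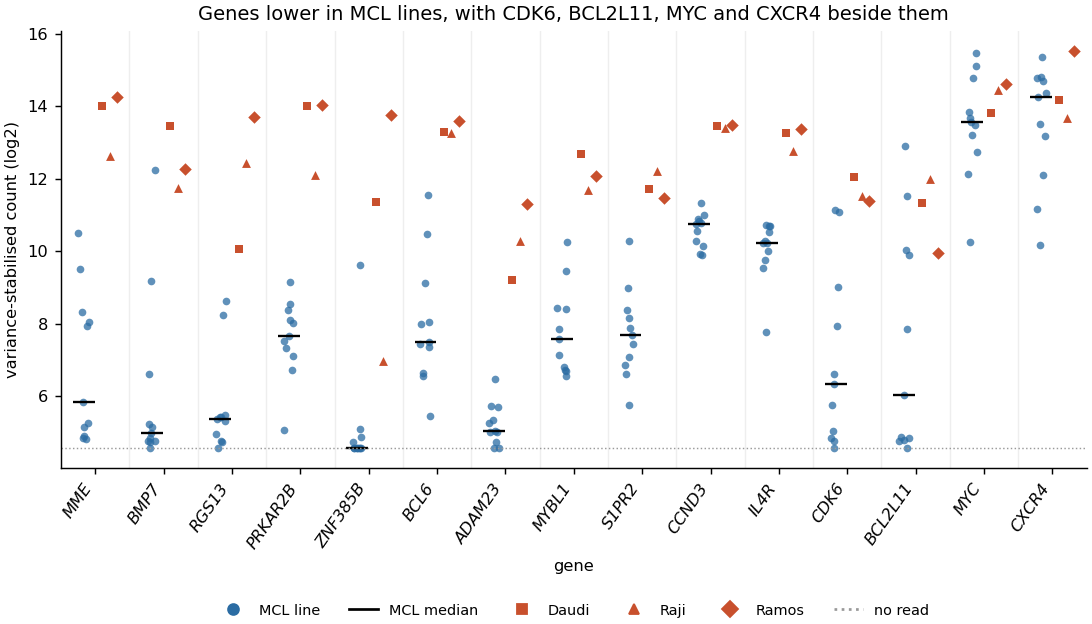
Level by line (vertical axis, log2 variance-stabilised count) of 11 genes lower in MCL and, at the right, of CDK6, BCL2L11, MYC and CXCR4, which were not called. Blue circles are the 11 MCL lines with their median as a bar, red symbols the BL lines, and the dotted line marks genes without a read. The BL symbols stand above all MCL circles for MME, RGS13, BCL6, CCND3 and IL4R, and within their range for MYC.

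Other genes with large negative differences were not on that list. ZNF385B, a zinc finger gene, had 1981, 174 and 19916 reads in Daudi, Raji and Ramos. In MCL 10 lines had at most 10 reads and UPN1 had 1737 (-5.59 ± 1.15 (adjusted p = 0.014)). The call on ZNF385B was lost without Daudi (0.1), without Ramos (0.1) and in all 34 lines (0.057). LINC01991, a long non-coding RNA (chromosome 3, 187958775 to 187976407) on the same chromosome arm as BCL6, lay at 8.96 in Daudi, 9.67 in Raji and 11.08 in Ramos and had at most 5 reads in every MCL line (-5.21 ± 0.32 (adjusted p = 6.5e-07)).

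ADAM23, an adhesion molecule of the disintegrin family, lay at 9.19 in Daudi, 10.28 in Raji and 11.30 in Ramos and at most at 6.48 in MCL (-5.04 ± 0.44 (adjusted p = 9.0e-06)). DEPTOR, an inhibitor of the growth kinase mTOR, lay at 12.08 in Daudi, 10.27 in Raji and 12.21 in Ramos and from 5.57 to 8.55 with a median of 6.33 in MCL (-4.81 ± 0.65 (adjusted p = 5.8e-04)). CADPS, which primes vesicles for secretion, had 25 reads in Daudi but 4025 in Raji and 4906 in Ramos, and at most 8 in any MCL line (-4.96 ± 0.73 (adjusted p = 0.0012)). The actin regulator WASF3 also had at most 8 reads in any MCL line, against 1564, 1546 and 295 in Daudi, Raji and Ramos (-4.87 ± 0.41 (adjusted p = 7.8e-06)). LOXL2, a lysyl oxidase that crosslinks collagen, ran from 7.84 in Daudi to 12.69 in Ramos, and from 4.96 to 7.23 with a median of 5.9 in MCL (-4.36 ± 0.71 (adjusted p = 0.0026)). CADPS and LOXL2 were thus far lower in Daudi than in the other BL lines, and Daudi stood less than 2 log2 units above the MCL range.

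Genes reported as characteristic of BL were lower in part. Of 12 tested, 4 were lower (0.899% of all genes were) and none higher, with a median of -0.96. BMP7, a ligand of the TGF-beta family, lay at 13.47 in Daudi, 11.75 in Raji and 12.28 in Ramos. It had at most 10 reads in 7 MCL lines but reached 12.23 in Jeko-1, inside the BL range (-6.41 ± 1.32 (adjusted p = 0.014), and adjusted p = 0.11 without Daudi). PRKAR2B, a regulatory subunit of protein kinase A, lay at 14.02 in Daudi, 12.10 in Raji and 14.04 in Ramos and from 5.05 to 9.16 with a median of 7.66 in MCL (-5.79 ± 0.67 (adjusted p = 1.5e-04)). No MCL line came within 2 log2 units of the lowest BL line in PRKAR2B.

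RGCC, a cell cycle regulator induced by complement, lay at 10.84 in Daudi, 10.14 in Raji and 11.12 in Ramos and from 4.81 to 8.18 with a median of 6.59 in MCL (-4.16 ± 0.63 (adjusted p = 0.0015)). A4GALT makes the glycolipid CD77, known as the Burkitt lymphoma antigen, and lay at 10.23 in Daudi, 10.72 in Raji and 10.83 in Ramos and from 4.55 to 8.99 with a median of 7.08 in MCL (-3.72 ± 0.81 (adjusted p = 0.018)). Its call was lost on leaving out Daudi (0.078), Raji (0.085) or Ramos (0.079) and in all 34 lines (0.059), although the groups did not overlap. Of 9 genes of globo-series and ganglioside synthesis A4GALT was the only one called.

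TCL1A, a coactivator of the kinase AKT that BL cells carry at high levels, was not called. It lay at 14.46 in Daudi, 14.10 in Raji and 16.24 in Ramos, and in MCL from 5.44 in REC-1 and 5.54 in Z-138 to 16.74 in Mino (-2.4 ± 2.12 (adjusted p = 0.65)). ID3, an inhibitor of the transcription factor TCF3 that is often mutated in BL, lay at 13.23 in Daudi, 12.27 in Raji and 14.48 in Ramos and from 10.44 to 14.06 with a median of 12 in MCL (-1.09 ± 0.65 (adjusted p = 0.45)). For TCL1A and ID3 the groups overlapped.

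MYC RNA did not separate the lymphomas. MYC lay at 13.83 in Daudi, 14.46 in Raji and 14.62 in Ramos, and in MCL from 10.27 to 15.48 with a median of 13.57, with Z-138, Jeko-1 and Mino above every BL line and UPN1 lowest (-0.82 ± 0.79 (adjusted p = 0.68)). None of 12 genes of the MYC network and none of 22 MYC-responsive growth genes, such as those of ribosome and nucleotide synthesis, was called. Their medians were -0.02 and 0.09, and at an unadjusted p under 0.05 the lists held 1 gene each. With 3.12% of all genes called, no call in lists of this size is near the background. Likewise none of 22 proliferation genes was called, with a median of 0.02 and 4 at an unadjusted p under 0.05. MKI67 lay at 14.42 in Daudi, 12.37 in Raji and 12.61 in Ramos and from 11.57 to 14.67 with a median of 13.87 in MCL.

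The region of MYC was looked at because of the BL translocation, after values had been seen. CASC11, a long non-coding RNA gene beside MYC, lay at 5.55 in Daudi, 10.89 in Raji and 11.06 in Ramos and from 4.55 to 6.89 with a median of 5.17 in MCL (-3.86 ± 0.82 (adjusted p = 0.017)). Raji and Ramos stood far above every other line, and Daudi lay inside the MCL range with 9 reads. Without Raji or without Ramos the call was lost (0.13 and 0.12). PVT1, on the other side of MYC, lay at 9.06 in Daudi, 10.67 in Raji and 10.57 in Ramos and from 8.43 to 12.02 with a median of 9.53 in MCL (-0.36 ± 0.65 (adjusted p = 0.85)), with the groups overlapping.

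Genes used to recognise MCL moved the other way. Of 13 MCL-associated genes, with a median of 3.65 against 0.09 for all genes, 6 were higher (2.22% of all genes were) and none was lower. They were CCND1, HDGFL3, FARP1, SOX11, DBN1 and PON2. SOX11 (ENSG00000176887, chromosome 2, 5692384 to 5701385), a transcription factor of neural development that is a diagnostic marker of MCL, had 0, 0 and 29 reads in Daudi, Raji and Ramos. In MCL it ran from 4.84 to 13.09 with a median of 10.79, and JVM2, with 1 read, was the only MCL line inside the BL range. Its difference was 5.37 ± 1.13 (adjusted p = 0.016), which did not pass without Daudi (0.1), without Raji (0.082) or with voom (0.55).

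HDGFL3, a relative of hepatoma-derived growth factor, lay at 4.55 in Daudi, 4.55 in Raji and 4.9 in Ramos and from 9.1 to 12.85 with a median of 10.96 in MCL (6.25 ± 0.59 (adjusted p = 1.7e-05)). PON2, a lactonase that protects cells from oxidative stress, had at most 2 reads in each BL line and 99 to 2721 in MCL (4.18 ± 0.77 (adjusted p = 0.0061)). FARP1, a guanine nucleotide exchange factor gene, had 6 to 8 reads in the BL lines and ran from 5.76 to 12.71 with a median of 11.66 in MCL, where HBL-2 and Jeko-1 were the low lines (5.43 ± 1.23 (adjusted p = 0.025)). The actin-binding protein gene DBN1 lay at 5.83 in Daudi, 5.83 in Raji and 10.48 in Ramos, Ramos reaching into the lower part of the MCL range of 10.33 to 13.63 (4.73 ± 0.86 (adjusted p = 0.0057)). FARP1 and DBN1 did not pass without Daudi (0.11 and 0.074). FARP1 did not pass without Raji (0.1) or Ramos (0.088) either, nor DBN1 without Raji (0.055), in all 34 lines (0.087) or in the 25 lines (0.091).

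The surface markers of MCL named here were not called. CD5, a T-cell molecule that MCL cells often carry, had 0 reads in all 3 BL lines. In MCL it ran from 0 reads in Z-138 to 6343, with 2 lines at no more than 10 (3.28 ± 1.3 (adjusted p = 0.22)). ROR1, a surface receptor of the WNT pathway and a therapeutic target in MCL, lay at 5.87 in Daudi, 7.86 in Raji and 4.55 in Ramos and from 5.4 to 11.40 with a median of 10.23 in MCL (3.65 ± 1.1 (adjusted p = 0.094)), and it passed only when JVM2, the lowest MCL line, was left out (0.011).

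**Figure D4:**
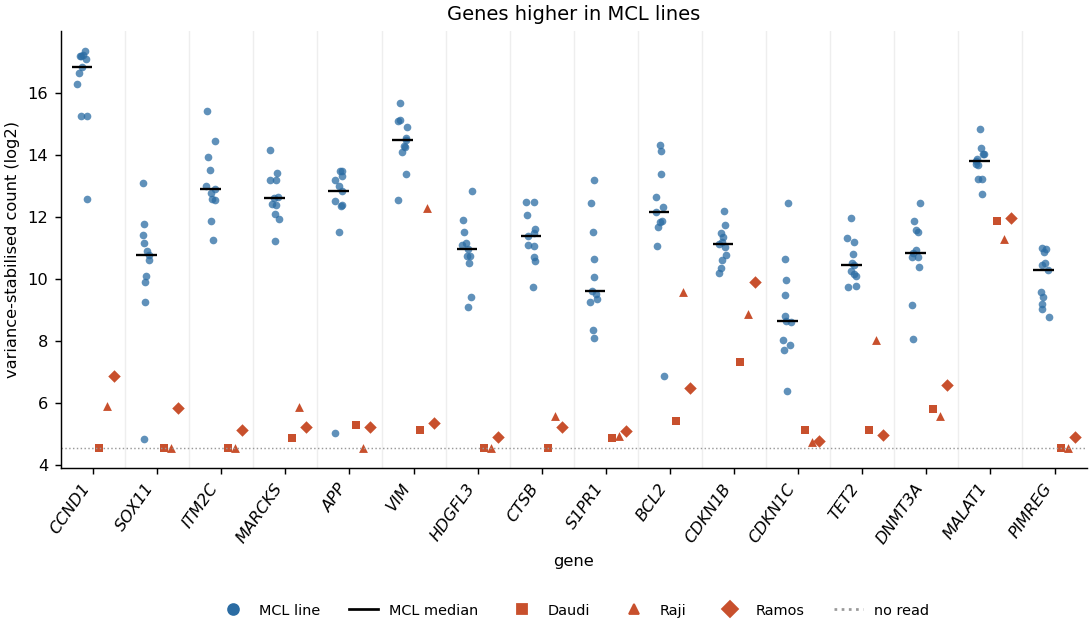
Level by line (vertical axis, log2 variance-stabilised count) of 16 genes higher in MCL. Blue circles are the 11 MCL lines with their median as a bar, red symbols the BL lines, and the dotted line marks genes without a read. A single MCL circle falls among the BL symbols for SOX11 (JVM2), for APP (MAVER-1) and for BCL2 (UPN1). Raji stands apart from Daudi and Ramos for VIM, BCL2 and TET2.

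ITM2C, the second of the higher genes by difference and the gene of a small transmembrane protein, had 0, 0 and 6 reads in Daudi, Raji and Ramos and 2614 to 91846 in MCL (8.37 ± 0.64 (adjusted p = 3.7e-06)). MARCKS lay at 4.89 in Daudi, 5.9 in Raji and 5.25 in Ramos and from 11.25 to 14.18 with a median of 12.61 in MCL (7.32 ± 0.47 (adjusted p = 6.5e-07)). CNN3, a calponin that binds actin, had at most 2 reads in each BL line and at least 1208 in each MCL line (6.09 ± 0.57 (adjusted p = 1.7e-05)). PDLIM1, which links kinases to actin fibres, was graded within BL, at 5.03 in Daudi, 8.2 in Raji and 11.86 in Ramos, yet all MCL lines were higher, from 13.63 to 15.47 with a median of 14.40 (6.05 ± 0.88 (adjusted p = 0.0011)).

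VIM, the intermediate filament vimentin, split the BL lines. It lay at 5.14 in Daudi, 12.31 in Raji and 5.36 in Ramos, and from 12.57 to 15.69 with a median of 14.50 in MCL (6.8 ± 1.07 (adjusted p = 0.0019)). Raji was therefore close to the lowest MCL line, REC-1 at 12.57, while Daudi and Ramos had 3 and 11 reads. The calcium-binding protein gene S100A4 lay at 4.55 in Daudi, 5.8 in Raji and 6.3 in Ramos and from 7.76 to 13.02 with a median of 12.09 in MCL (6.13 ± 0.8 (adjusted p = 4.4e-04)), and the low MCL line was UPN1. Its relatives S100A6 (5.11 ± 1.19 (adjusted p = 0.028)) and S100A11 (5.35 ± 1.22 (adjusted p = 0.025)), named after their values were seen, showed the same order of groups. They had at most 11 reads in any BL line, and both calls were lost on leaving out any BL line (adjusted p of 0.072 to 0.15). S100A11 had 3 reads in REC-1, and S100A6 was lowest there at 6.1. JVM2 was highest in S100A6 and S100A11, at 14 and 13.85.

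APP, the amyloid precursor protein gene, lay at 5.3 in Daudi, 4.55 in Raji and 5.25 in Ramos and at 11.53 to 13.48 in 10 MCL lines, while MAVER-1 had 7 reads (7.07 ± 1.28 (adjusted p = 0.0057), and 0.59 with voom). RNF130, a ubiquitin ligase, had the same form, with JVM2 as the MCL line at BL level, 5.3 (6.07 ± 1.17 (adjusted p = 0.0088), and 0.065 without Daudi). CTSB, the lysosomal protease cathepsin B, lay at 4.55 in Daudi, 5.58 in Raji and 5.25 in Ramos and from 9.75 to 12.51 with a median of 11.40 in MCL (6.22 ± 0.49 (adjusted p = 3.7e-06)). HIPK2, a kinase of the DNA damage response, had at most 4 reads in each BL line and at least 490 in each MCL line (6.17 ± 0.57 (adjusted p = 1.3e-05)). PARP15, an ADP-ribosyltransferase of activated B cells, lay at 4.55 in Daudi, 6.11 in Raji and 5.1 in Ramos and from 9.71 to 12.80 with a median of 11.49 in MCL (6.15 ± 0.54 (adjusted p = 9.0e-06)). The phosphatase gene PTP4A3 lay at 4.55 in Daudi, 5.48 in Raji and 5.43 in Ramos and from 9.14 to 13.94 with a median of 11.46 in MCL (5.84 ± 0.79 (adjusted p = 5.8e-04)). In CTSB, HIPK2, PARP15 and PTP4A3 the groups did not overlap.

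BCL2-family proteins set the threshold for apoptosis. Of 15 tested, 2 were higher and 1 lower in MCL (median -0.27), against 2.22% and 0.899% of all genes. The survival gene BCL2 lay at 5.44 in Daudi, 9.6 in Raji and 6.48 in Ramos and from 6.88 to 14.33 with a median of 12.18 in MCL (4.86 ± 1.17 (adjusted p = 0.034)). Raji exceeded the lowest MCL line, UPN1, and the call was lost without Daudi (0.23), without Ramos (0.14), in all 34 lines (0.12), with voom (0.35) and, at up to 0.053, without HBL-2, SP-49 or SP-53. BMF, a death-promoting member, lay at 8.6 in Daudi, 8.46 in Raji and 8.87 in Ramos and from 9.51 to 12.17 with a median of 10.23 in MCL, a small difference without overlap (1.93 ± 0.5 (adjusted p = 0.047)). Its call was lost on leaving out any BL line (0.11 to 0.18) and under both alternative scalings (0.054 and 0.07), in all 34 lines (0.44), in the 25 lines of 1 library class (0.32) and also, at up to 0.069, without HBL-2, Jeko-1, MAVER-1, Mino, SP-49 or Z-138.

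BIK, another death-promoting member, was lower, at 9.42 in Daudi, 11.49 in Raji and 11.66 in Ramos against from 5.13 to 11.09 with a median of 6.7 in MCL (-4.02 ± 0.94 (adjusted p = 0.028)). GRANTA519 was its high MCL line at 11.09, and without Raji or Ramos BIK did not pass (0.14 in each case), nor in all 34 lines (0.11) or in the 25 lines (0.072). BCL2L11, which encodes the killer protein BIM, lay at 11.32 in Daudi, 11.98 in Raji and 9.96 in Ramos. Its MCL values split into 5 lines with at most 10 reads (Jeko-1, Mino, SP-49, SP-53 and Z-138) and a remainder reaching 12.92 in MAVER-1. The difference of -3.63 ± 1.67 (adjusted p = 0.31) was not called.

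The series centres on CXCR4, the receptor for the chemokine CXCL12 that holds B cells in marrow and lymphoid tissue. CXCR4 (ENSG00000121966, chromosome 2, 136114349 to 136118149) lay at 14.17 in Daudi, 13.68 in Raji and 15.53 in Ramos and from 10.17 to 15.37 with a median of 14.25 in MCL. The difference in means was -0.97 (exact two-sided permutation test over the 14 lines, p = 0.39, where the smallest p possible was 0.0055). Ramos was above every MCL line, and Daudi and Raji lay in the middle of the MCL range, of which REC-1 was the lowest. Across the alternatives the difference stayed between -1.36 and -0.43, with exact p from 0.23 to 0.95, so no difference in CXCR4 was detectable between these lines.

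Receptors that place B cells inside or outside the follicle were among the calls. Of 16 chemokine and positioning receptors, 2 were higher and 1 was lower (median 0.77), against 2.22% and 0.899% of all genes. S1PR1, which draws lymphocytes out of lymphoid tissue towards blood, had 1, 4 and 5 reads in Daudi, Raji and Ramos and 401 to 28333 in MCL (5.22 ± 0.88 (adjusted p = 0.0032), and 0.26 with voom). S1PR2, which binds the same lipid but confines cells to the germinal centre, lay at 11.71 in Daudi, 12.20 in Raji and 11.46 in Ramos and from 5.76 to 10.27 with a median of 7.68 in MCL (-4.05 ± 0.69 (adjusted p = 0.0037)). The pair thus moved in opposite directions, each without overlap, and S1PR1 was highest in SP-49 and SP-53.

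GPR183, the oxysterol receptor that guides B cells to the outer follicle, lay at 5.98 in Daudi, 9.24 in Raji and 4.8 in Ramos and from 7.05 to 13.57 with a median of 11.69 in MCL (4.43 ± 1.1 (adjusted p = 0.04)). Raji exceeded Mino and Z-138, the lowest MCL lines. The call on GPR183 was lost without Daudi (0.2), without Ramos (0.21), in all 34 lines (0.16) and, at up to 0.063, without any of GRANTA519, HBL-2, Jeko-1, MAVER-1, SP-49, SP-53 or UPN1. KLF2, the transcription factor known to switch on S1PR1, lay at 5.14 in Daudi, 5.01 in Raji and 8.38 in Ramos and from 7.85 to 12.85 with a median of 10.12 in MCL (3.91 ± 0.96 (adjusted p = 0.036)), and was the only 1 of 18 B-cell transcription factors called. It was lost without Daudi (0.21), without Raji (0.2) and, at up to 0.055, without GRANTA519, HBL-2, Jeko-1 or MAVER-1. CCR7, the receptor for entry into lymph nodes, had 2 and 25 reads in Daudi and Ramos but lay at 11.39 in Raji, within the MCL range of 6.61 to 15.45 (4.39 ± 1.52 (adjusted p = 0.15)). CXCR5, which guides B cells into follicles, overlapped between the groups (-1.61 ± 1.41 (adjusted p = 0.65)).

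Among 18 adhesion and homing genes only PTK2, the gene of focal adhesion kinase, was called. It lay at 10.96 in Daudi, 9.96 in Raji and 10.17 in Ramos and from 4.55 to 8.65 with a median of 5.69 in MCL, without overlap (-4.34 ± 0.77 (adjusted p = 0.005), and 0.069 in all 34 lines). CD44, a hyaluronan receptor, was at 5.26 in Raji and near 8 to 9 in Daudi and Ramos. In MCL CD44 ran from 4.87 to 13.40 with a median of 11.65 (3.67 ± 1.42 (adjusted p = 0.21)), and it passed only without Z-138, its lowest MCL line (0.025).

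Upstream sequences of genes that moved apart are shown so that they can be read beside the values. Each is the 250 bases before the first start that the RefSeq promoter table (GRCh38.p14) lists for the gene, written 5′ to 3′ on the strand of the gene. That table lists further starts for CCND3 and TET2. The CCND3 window lies within the span given for the gene above, and the S1PR1 window runs into that of S1PR1, so these are upstream of a listed start and not of the whole gene. Capitals mark matches, on either strand, to the E-box bound by E proteins (CAGGTG, or CACCTG on the other strand), to the E-box bound by MYC (CACGTG) or to the octamer of B-cell promoters (ATTTGCAT, or ATGCAAAT). CCND3 (chr6:42048689-42048938, minus strand), PRKAR2B (chr7:107044455-107044704, plus strand) and TET2 (chr4:105145625-105145874, plus strand, values below) each held 1 match. S1PR1 (chr1:101236769-101237018, plus strand) and S1PR2 (chr19:10231332-10231581, minus strand), the receptor pair that moved in opposite directions, held none. The windows of RGS13, BCL6, MME, BCL2 and MARCKS were also read, held none either and are not printed.
CCND3: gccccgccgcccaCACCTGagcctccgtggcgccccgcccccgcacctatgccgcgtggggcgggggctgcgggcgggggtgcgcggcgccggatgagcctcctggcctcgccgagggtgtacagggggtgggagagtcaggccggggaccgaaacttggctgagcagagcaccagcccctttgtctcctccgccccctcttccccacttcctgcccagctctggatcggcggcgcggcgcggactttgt
PRKAR2B: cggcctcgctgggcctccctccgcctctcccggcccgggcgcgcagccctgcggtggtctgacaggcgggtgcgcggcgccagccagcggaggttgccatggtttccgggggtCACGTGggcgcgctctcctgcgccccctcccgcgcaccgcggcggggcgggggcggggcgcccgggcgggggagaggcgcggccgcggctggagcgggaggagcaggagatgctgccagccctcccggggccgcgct
TET2: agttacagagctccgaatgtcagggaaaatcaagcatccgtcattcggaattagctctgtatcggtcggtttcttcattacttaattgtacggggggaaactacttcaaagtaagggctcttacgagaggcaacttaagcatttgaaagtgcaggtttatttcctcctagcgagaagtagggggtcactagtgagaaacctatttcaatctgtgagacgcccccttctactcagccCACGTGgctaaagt
S1PR1: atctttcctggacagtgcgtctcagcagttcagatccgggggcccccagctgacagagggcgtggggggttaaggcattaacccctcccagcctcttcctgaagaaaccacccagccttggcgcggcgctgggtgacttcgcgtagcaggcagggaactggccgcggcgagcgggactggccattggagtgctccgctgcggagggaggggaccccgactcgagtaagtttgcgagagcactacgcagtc
S1PR2: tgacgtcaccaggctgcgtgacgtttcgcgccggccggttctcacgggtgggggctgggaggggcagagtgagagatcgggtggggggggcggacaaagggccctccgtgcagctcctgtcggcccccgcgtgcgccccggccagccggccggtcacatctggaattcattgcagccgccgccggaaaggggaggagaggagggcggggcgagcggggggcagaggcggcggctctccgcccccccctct

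The match in CCND3 was CACCTG, 237 bases before that listed start, and those in PRKAR2B and TET2 were CACGTG, 137 and 14 bases before it. CAGGTG occurred in 15.9% of the 283 higher and 19.6% of the 97 lower genes whose upstream sequence was found, against 16.2% of 11592 tested genes. CACGTG occurred in 8.83%, 7.22% and 8.85% of the same groups, and the octamer in 3.18%, 3.09% and 1.54%. Over the first windows of all 27305 genes of the table the shares were 17.5%, 6.49% and 1.66%. The groups thus held each E-box about as often as tested genes in general. The octamer was more frequent in both groups, but in only 9 higher and 3 lower genes, and this was not tested. A match is a description of letters only.

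Signalling receptors and inhibitory receptors gave single calls. PTPN6, the phosphatase that damps B-cell receptor signals, was the only 1 of 24 genes of that pathway called. It lay at 7.83 in Daudi, 10.88 in Raji and 9.97 in Ramos and from 11.66 to 15.54 with a median of 13.94 in MCL (4.22 ± 0.83 (adjusted p = 0.01)), and Raji came closest to the lowest MCL line, MAVER-1. Without Daudi, its lowest line, PTPN6 did not pass (0.11), nor in all 34 lines (0.076). LILRB4, an inhibitory receptor otherwise known from myeloid and plasma cells, had 1, 5 and 12 reads in Daudi, Raji and Ramos and ran from 7.45 to 13.47 with a median of 11.65 in MCL (6.16 ± 0.96 (adjusted p = 0.0018)). FCRL5, an Fc receptor-like protein of memory and marginal zone B cells, lay at 6.66 in Daudi, 7.19 in Raji and 6.75 in Ramos and from 8.63 to 14.36 with a median of 11.68 in MCL, highest in SP-49 and SP-53 (4.71 ± 0.98 (adjusted p = 0.014)). FCRL5 was lost on leaving out any BL line (0.053 to 0.09) and in all 34 lines (0.12). These were 2 of 13 members of their families, where 2.22% of all genes were higher.

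TNFRSF13B, which encodes TACI, a receptor for B-cell survival factors, lay at 5.3 in Daudi, 10.43 in Raji and 7.32 in Ramos and from 9.98 to 13.85 with a median of 11.46 in MCL (3.97 ± 0.92 (adjusted p = 0.028)). Raji was within the MCL range, and the call was lost without Daudi (0.23) or Ramos (0.11), in all 34 lines (0.27) and in the 25 lines (0.18). It and MME were the calls among 23 surface antigens, where 3.12% of all genes were called. Of 21 cytokine receptor and JAK-STAT genes IL4R was lower and CISH was higher, against 3.12% of all genes called in either direction. IL4R, a subunit of the interleukin-4 receptor, lay at 13.25 in Daudi, 12.76 in Raji and 13.36 in Ramos and from 7.77 to 10.73 with a median of 10.23 in MCL (-3.09 ± 0.48 (adjusted p = 0.0019), and 0.11 in all 34 lines), so all BL lines stood at least 2 log2 units above the highest MCL line. CISH, a feedback inhibitor of STAT5 signalling, had at most 2 reads in BL and 57 to 679 in MCL (2.55 ± 0.47 (adjusted p = 0.0067)).

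Of 25 interferon-stimulated genes 2 were higher (median 0.88), against 2.22% of all genes. MX2, an antiviral GTPase, lay at 7.56 in Daudi, 5.56 in Raji and 9.14 in Ramos and from 9.12 to 12.99 with a median of 11.72 in MCL (4.08 ± 0.74 (adjusted p = 0.0057)), with the lowest MCL line, REC-1, next to Ramos. IRF7, which amplifies interferon signals, lay at 6.56 in Daudi, 8.17 in Raji and 8.97 in Ramos and from 9.42 to 12.57 with a median of 10.46 in MCL (2.77 ± 0.58 (adjusted p = 0.016)). Neither passed without Raji (0.055 and 0.053), IRF7 not without Daudi (0.15) and MX2 not in all 34 lines (0.14). Of 18 genes of glycolysis and lactate transport SLC16A3, the lactate exporter, was called higher (3.26 ± 0.77 (adjusted p = 0.031)), and this was lost without Daudi (0.18), without Raji (0.2), without SP-53 (0.051), in all 34 lines (0.17) and in the 25 lines (0.09).

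TET2, which oxidises methylated cytosine, and DNMT3A, which methylates it, were the 2 calls among 17 chromatin regulators, both higher in MCL (median 0.13, with 2.22% of all genes higher). TET2 (chromosome 4, 105145875 to 105279803) had 3 reads in Daudi, 457 in Raji and 3 in Ramos, and at least 1189 in every MCL line (4.53 ± 0.58 (adjusted p = 3.7e-04)). DNMT3A lay at 5.83 in Daudi, 5.58 in Raji and 6.61 in Ramos and from 8.09 to 12.46 with a median of 10.85 in MCL (4.75 ± 0.69 (adjusted p = 0.0011), and 0.076 with voom), the low line being JVM2. TET2 passed in every alternative fit tried. MALAT1, an abundant nuclear RNA, was the only call among 11 microRNA host and long non-coding genes, at 11.87 in Daudi, 11.29 in Raji and 11.99 in Ramos against from 12.74 to 14.84 with a median of 13.80 in MCL (2.05 ± 0.35 (adjusted p = 0.0037)). All MCL lines were above all BL lines in MALAT1. The microRNA-155 host MIR155HG varied from 4.55 in REC-1 to 14.05 in JVM2 (1.18 ± 1.46 (adjusted p = 0.77)).

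The remaining lists held no call, which for lists of this size is near the 3.12% called among all genes and says nothing particular about them. The lists above with a single call are also too small to be told from that share. None of 24 NF-kB target genes was called (median 0.52, 4 at an unadjusted p under 0.05), and MCL lines differed among themselves by up to 12 log2 units in the chemokine gene CCL3, from 4.92 to 17.08. None of 12 plasma cell genes passed, with 4 higher and 3 lower at an unadjusted p under 0.05. Among them IRF4, a factor of activated B cells and plasma cells, lay at 7.69 in Daudi, 8.54 in Raji and 13.10 in Ramos and from 11.10 to 13.73 with a median of 13.11 in MCL (2.94 ± 0.86 (adjusted p = 0.086)), so Ramos stood with the MCL lines. No call was made among 15 MHC class I genes (median 0.00), 17 MHC class II genes (-0.28), 17 immunoglobulin genes (0.66), 12 Toll-like receptor genes (0.67), 14 genes of serine and arginine synthesis (-0.57) and 6 E and ID protein genes (0.62). B2M, the light chain of MHC class I, was lowest of the 14 lines in Daudi, at 12.84 against 15.81 in Raji and 16.30 in Ramos, and Daudi is known to lack surface MHC class I. The 13 mitochondrially encoded genes (median 0.37) and 11 clustered histone genes (0.92), which respond to RNA quality and to RNA without a poly(A) tail, gave no call.

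**Figure D5:**
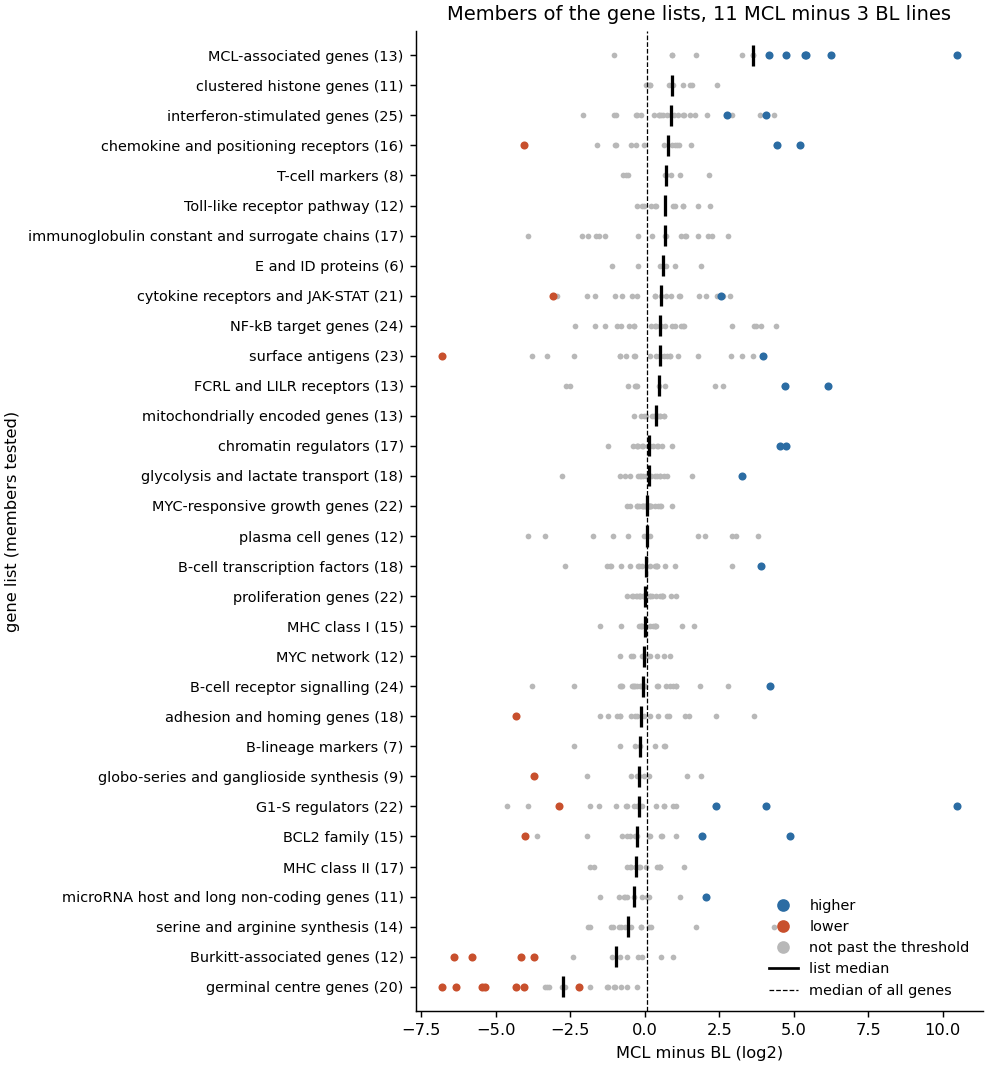
Differences between MCL and BL (horizontal axis, log2) of the members of the 32 gene lists with at least 6 members tested, each point a gene, with the number of members tested in brackets. Blue and red points were called higher and lower in MCL, grey points were not called, bars are list medians, and the dashed line is the median of all genes at 0.09. The MCL-associated list lies farthest to the right and the germinal centre list farthest to the left.

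Lines of the same pathology also differed. Of the tested genes, Ramos lay more than 3 log2 units above both other BL lines in 201 and below in 84, Raji in 98 and 94, and Daudi in 67 and 122. Among MCL lines JVM2 was the most distinct, more than 3 log2 units above all other MCL lines in 101 genes and below in 50, and REC-1 was next with 12 and 39. Of the 527 called genes 106 had JVM2 on the BL side of the midpoint between the group means. The number was 54 in REC-1, 51 in UPN1 and 7 in SP-53. Without JVM2 839 genes were called, among which were 526 of the 527.

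The cell cycle inhibitor locus on chromosome 9, often lost in MCL, was read after values had been seen. CDKN2A, whose products hold back CDK4 and CDK6 and stabilise p53, lay at 9.39 in Daudi, 12.48 in Raji and 12.63 in Ramos. It had at most 10 reads in 5 MCL lines and reached 13.32 in Mino (-3.91 ± 1.99 (adjusted p = 0.36)). MTAP, its neighbour and an enzyme of methionine salvage, had at most 10 reads in GRANTA519 and MAVER-1, and lay between 8.76 and 10.91 in the other 9 MCL lines (-1.35 ± 1.14 (adjusted p = 0.63)). CNTLN, a centriole gene of the same arm (chromosome 9, 17135040 to 17528634), lay at 9.08 in Daudi, 8.62 in Raji and 9.28 in Ramos and had at most 10 reads in 9 MCL lines (-3.93 ± 0.65 (adjusted p = 0.0029)). CNTLN did not pass in all 34 lines (0.071) or in the re-analysed lines alone (0.1). DNA was not measured here.

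PIMREG, which encodes a protein of mitotic cells, had an unusual form and is named for it. It had 0, 0 and 2 reads in Daudi, Raji and Ramos, and 785 to 4927 in MCL (5.35 ± 0.49 (adjusted p = 1.3e-05)). In 11 DLBCL lines it reached at most 4.81, about 1 read. Other genes of mitosis, such as MKI67 above, were abundant in every line, and whether the counting of PIMREG differed between libraries was not tested. RHOB (5.31 ± 0.71 (adjusted p = 5.4e-04)), the gene of a small GTPase, and TUBB4A (5.81 ± 0.81 (adjusted p = 7.5e-04)), a tubulin, were also named after their values were seen. RHOB had at most 1 read in each BL line and at least 397 in each MCL line. TUBB4A had 3, 18 and 45 reads in Daudi, Raji and Ramos and at least 278 in MCL.

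The called genes were placed against DLBCL lines of the same series. All MCL and BL libraries had reads of ZNF593 and EMC6, which 9 other libraries of the series lack, so only the 11 DLBCL lines (6 GCB, 5 ABC) that also have them were used. A DLBCL line was counted on the MCL side of a gene where it lay on that side of the midpoint between the MCL and BL means. Of the 375 higher genes 43 had at least 9 of 11 DLBCL lines on the MCL side, 43 had at least 9 on the BL side and 289 lay between. Of the 152 lower genes the numbers were 53, 0 and 99. This is a count of lines and not a test.

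CCND1 and CNN3 had no DLBCL line on the MCL side, with DLBCL maxima of 9.81 and 7.1, and SOX11 and CDKN1C had 1 each. In contrast MALAT1 had all 11 DLBCL lines on the MCL side (lowest 13.18), TET2 10 and CTSB 9. Among the lower genes CASC11 had all 11 DLBCL lines on the MCL side, PRKAR2B and ADAM23 10, and ZNF385B and A4GALT 9. For these genes most DLBCL lines lay with the MCL lines. BCL6 and RGS13 had only 3 on the MCL side, and the GCB mean of BCL6 was 13.35 against 11.36 for ABC. MME had a GCB mean of 12.40 and an ABC mean of 7.25, and S1PR2 11.52 and 6.65. The GCB means of these 3 genes were thus near the BL levels. CXCR4 had a DLBCL median of 11.93. The called MCL-associated genes beside CCND1 and SOX11 were less particular to MCL. DBN1 had 8 of the 11 DLBCL lines on the MCL side, HDGFL3 6, PON2 4 and FARP1 2.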

How the data were processed

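RNA of 34 cell lines was sequenced at different times, per the labels' protocols, which do not say which line belongs to which time, and 14 of these libraries are compared here. The authors deposited 1 table of variance-stabilised counts in log2 units for 31975 genes. The submitters' processing notes name the build GRCh38 and the tools DESeq2 1.26.0, STAR 2.5.3a and R 3.6.1, without roles. The read counter, annotation release, strandedness and gene filters are not given in the sources used here. Overlapping, antisense and near-identical genes may therefore share reads. Because the lowest value is a count of 0, the transform could be inverted, and 100% of values came out as whole reads within 0.05 in every library. A level rests on the depth of its library, and Daudi, with 22.6 M reads, was measured least precisely.

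Symbols were matched for 31574 identifiers, and positions and upstream sequences came from RefSeq (GRCh38.p14) by symbol. Genes were kept where at least 3 of the 14 lines lay more than 1 log2 unit above the lowest value. Groups were fitted with limma 3.58.1 in R 4.3.3 (lmFit, eBayes with an intensity trend) on the values as deposited, with Benjamini-Hochberg adjustment over the 16902 genes. The fit was tested on simulated reads, where it recovered 62% of genes changed 4-fold between MCL and BL and 92% of those changed 8-fold, with 6 false calls among 16441 genes. The simulation gave every gene the same dispersion and changed only genes above a minimum mean count. The spread of the real lines differs by gene, so these shares do not give the power or the false calls of the comparison itself. CXCR4 was tested by an exact permutation test (SciPy 1.17.1, Python 3.11.15). Named genes were CXCR4, CCND1, SOX11, MYC, BCL6, MME, CDK6 and BCL2L11, CCND2 and CCND3 beside CCND1, the 15 highest and 15 lowest called differences with a symbol, and in each of 36 gene lists up to 6 called members and members that define the list. 1 named gene is not reported here. The compared lines, the lists and the named genes were chosen with earlier results of these data known. Alternatives were other sets of lines, filters, scalings, the mark of re-analysed data, voom and a robust prior.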

Additional observations from a re-analysis of the deposited data

How the results depend on the processing

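In the comparison of 11 MCL and 3 BL lines 2.22% of genes were higher and 0.899% lower. All 34 lines in 1 fit gave 1.3% higher and 0.503% lower, the lines marked as re-analysed alone 0.503% and 0.272%, and voom on recovered reads 0.438% higher. The stricter filter gave 0.788% lower (93 of 11807 genes), median-centring 1.37% and quantile normalization 1.69%. Leaving out 1 line at a time gave 0.816 to 3.53% higher and 0.497 to 1.43% lower, the extremes being without Daudi and without JVM2. The counts of the remaining fits stayed within 1.5 times, except 195 higher without Raji. Calls shared with the 527 numbered 245 in all 34 lines, 337 in the 25 lines of 1 library class, 402 without a filter, 415 with the stricter filter, 439 after median-centring, 436 after quantile normalization, 118 in the re-analysed lines and 196 with voom, and each shared call had the same direction. As these fits share lines and values, the same direction was nearly fixed in advance. At an unadjusted p under 0.05 there were 2672 of the 16902 genes tested. The mean CXCR4 difference kept its sign and did not pass in any alternative. Of 64 named genes called, 46 were called in all 34 lines, 51 in the 25 lines, 30 in the re-analysed lines, 35 with voom, 43 without Daudi, 49 without Raji and 51 without Ramos. Voom did not call SOX11, APP, HDGFL3, LILRB4, S100A4, RNF130, PTP4A3, FARP1, DBN1, PON2, CDKN1C, CDKN1B, BCL2, BMF, PTPN6, KLF2, S1PR1, GPR183, MX2, IRF7, TNFRSF13B, FCRL5, SLC16A3, CISH, DNMT3A, S100A6, S100A11, RHOB and TUBB4A. Among the genes not called in the re-analysed lines were SOX11, BCL6, VIM, LILRB4, RNF130, BMP7, ZNF385B, MYBL1, PTK2, FARP1, DBN1, PON2, RGCC, A4GALT, S1PR2, CDKN1C, CDKN1B, BIK, BMF, KLF2, S1PR1, GPR183, MX2, IRF7, TNFRSF13B, FCRL5, SLC16A3, IL4R, DNMT3A, CNTLN, S100A6, S100A11 and TUBB4A. Among those not called in all 34 lines were CCND3, ZNF385B, PTK2, DBN1, A4GALT, CDKN1B, BCL2, BIK, BMF, PTPN6, GPR183, MX2, TNFRSF13B, FCRL5, SLC16A3, IL4R and CNTLN, and in the 25 lines PTK2, DBN1, CDKN1B, BCL2, BIK, BMF, KLF2, GPR183, MX2, TNFRSF13B, SLC16A3 and S100A6. Without a filter BCL2, BMF, KLF2 and GPR183 were not called. The cause was not tested. No paired analysis was possible because each line has 1 library and belongs to 1 pathology.

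Limits are set by the 3 BL lines, by the depth of Daudi at 22.6 M reads and by a scale that is compressed near 0 reads. The 4 lines without the mark of re-analysed data hold 1 BL line, so no spread of BL was measured among them.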
